A study of Mus musculus with 8 samples.

Results

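The genes described here are 33 genes of cholesterol and fatty acid synthesis, chosen by symbol with earlier results of these data known. They comprise 18 enzymes of sterol synthesis and 6 genes that sense sterols or control the SREBP transcription factors. The others are 7 genes of fatty acid synthesis and 2 genes of the cholesterol esterification cycle. All these genes were followed in microglia, the macrophages that live in the brain. The microglia were sorted from mice in which *Smad2* and *Smad3* were targeted for deletion in these cells. All 33 were found among the 55573 genes of the deposited count table, and all 33 reached 10 counts in 4 or more of the 8 libraries, as 20153 genes of the table did. The filter therefore removed no member.

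Microglia were sorted by FACS from brains at postnatal day 60 from 4 mutant and 4 control mice, with 1 library per mouse. Mutant mice carried floxed alleles of *Smad2* and *Smad3* and a Cre recombinase expressed from the *Cx3cr1* locus (*Smad2/3 fl/fl;Cx3cr1Cre*). *Smad2* and *Smad3* encode the receptor-activated mediators of canonical TGFβ signalling, and *Cx3cr1* is active in microglia and in related macrophages, so such macrophages can carry the deletion too. The sample labels call the controls wild-type, whereas the Methods say that control mice generally carried Cre with a floxed allele, so the exact control genotype is uncertain. Groups were compared with edgeR's quasi-likelihood test over all 20153 genes, with Benjamini-Hochberg adjustment, and a gene was called higher or lower at an adjusted p under 0.05. Levels are CPM, in which counts are scaled to the TMM-adjusted size of the library, and the log2 fold change is that of mutants over controls.

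Cholesterol is built from acetyl-CoA through mevalonate, the isoprenoids, squalene and lanosterol, and fatty acids are built from the same acetyl-CoA by carboxylation, stepwise extension, elongation and desaturation. The SREBP factors, encoded by *Srebf1* and *Srebf2*, turn on most of these genes once SCAP has escorted them out of the endoplasmic reticulum, and the INSIG proteins hold SCAP back when sterols are plentiful. Microglia take up cholesterol-rich debris such as myelin, and macrophages store surplus cholesterol as esters in lipid droplets, which SOAT1 makes and NCEH1 breaks down.

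Each library held between 35639502 and 41946479 counts on genes, so spread between mice rather than counting error limited the precision of the well expressed members. Of all tested genes, 2485 were called, 878 higher and 1607 lower. The targeted *Smad3* was at 39.5 to 56.9 CPM in controls and 9.61 to 35.1 CPM in mutants, and *Smad2* at 62.7 to 92.4 and 42.7 to 75.9 CPM (log2 fold changes -1.33 and -0.34, adjusted p = 0.0429 and 0.340). *Smad3* thus fell without overlap, whereas the *Smad2* groups overlapped and counts over the whole gene did not show its deletion. Of 9 microglia markers, 7 fell and *C1qa* and *Aif1* were not called, and the sum of the list was 31756 to 48010 CPM in controls and 8739 to 11550 CPM in mutants. None of these markers was at 0, and the lowest was *Sall1* at 0.208 to 5.08 CPM in mutants. *Cx3cr1* was among the 7 that fell (log2 fold change -2.33). Its locus carries Cre in the mutants, and the part of that allele in its fall was not tested. Of 5 markers of border macrophages, 4 rose, and the sum of the list was 26.4 to 36.6 CPM in controls and 1565 to 2432 CPM in mutants, with none at 0 in any library. In RNA from a sorted population, a change in which cells were collected and a change in RNA per cell cannot be told apart. *Xist* was at 99.5 to 183 CPM in the controls and at 0.0276 to 0.562 CPM in the mutants, and the Y-linked *Ddx3y* went the other way, so the sex of the mice and their genotype cannot be told apart for any gene below.

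Of the 33 genes, 3 were called, or 9.09%, against 12.3% of all tested genes. *Nceh1* and *Soat1* rose and *Acly* fell, so 2 members were higher, against a background of 4.36%, and 1 was lower, against 7.97%. The median log2 fold change of the members was 0.11, compared with 0.01 over all tested genes, and 20 members had a positive and 13 a negative value. The groups did not overlap in CPM for 5 members, *Nceh1*, *Soat1* and *Acaca* with all mutants above and *Acly* and *Insig2* with all mutants below, whereas 22.1% of all tested genes did not overlap, 9.04% with mutants above and 13% with mutants below. The other 28 members overlapped between mutants and controls. The share called was near the background and says nothing of the members as a set. The calls stood in the esterification cycle and at the step that supplies cytosolic acetyl-CoA.

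**Figure D1:**
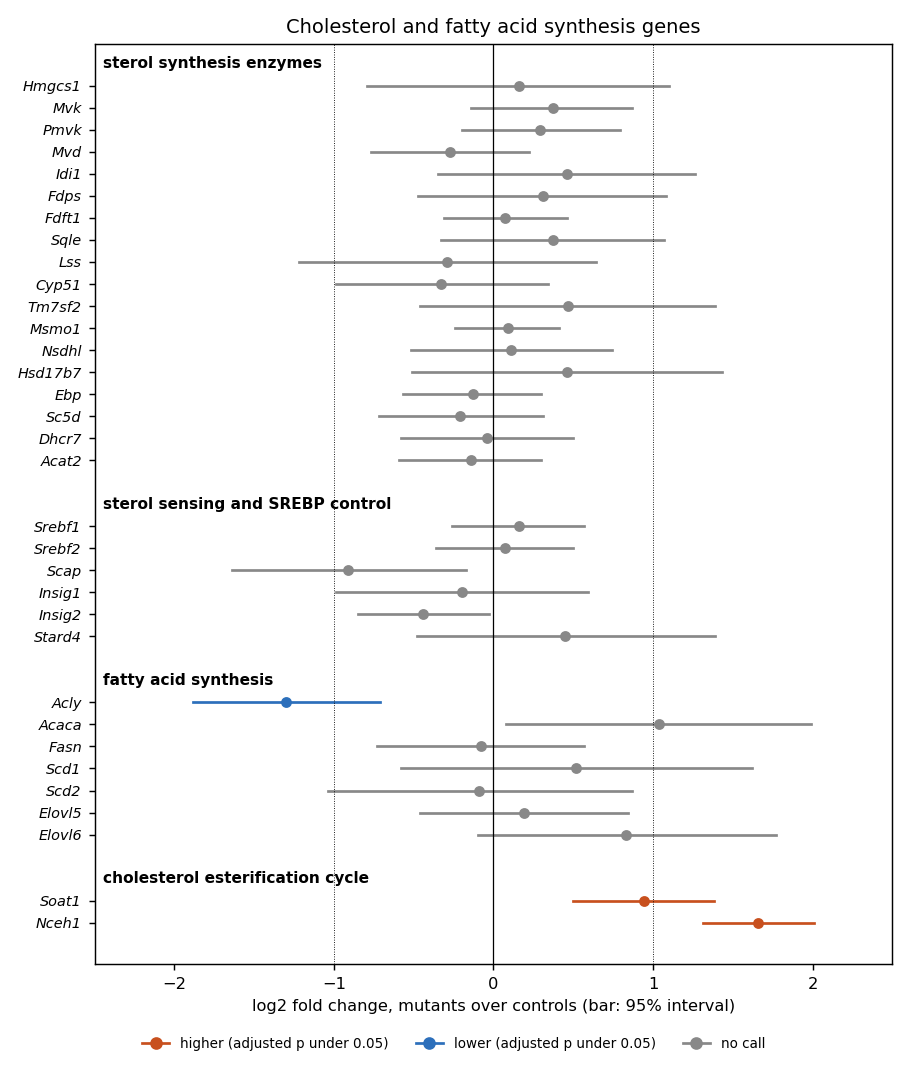
Log2 fold change of mutants over controls for the 33 genes, grouped by role, with points for the edgeR estimate and bars for the 95% interval. *Nceh1* and *Soat1* (orange) lie to the right of 0 and *Acly* (blue) to the left, at 1.66, 0.94 and -1.30, and the 18 sterol synthesis enzymes lie between -0.33 and 0.47.

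The esterification cycle held both members that rose. *Nceh1* (ENSMUSG00000027698, chr3:27182965-27284608, plus strand, GRCm38) encodes a hydrolase that frees cholesterol from stored cholesteryl esters. Its level was 24.2, 24.9, 21.9 and 21.6 CPM in controls 1 to 4 and 81.3, 66.6, 81.9 and 62.0 CPM in mutants 1 to 4. The lowest mutant was well above the highest control, and the 4 controls lay within a narrow band. The mean rose from 23.1 ± 1.64 to 73.0 ± 10.2 CPM (SD, n = 4 each), 3.16-fold, and the log2 fold change was 1.66 (standard error 0.15, 95% interval 1.31 to 2.01, adjusted p = 2.4e-04). Per kilobase of exon, *Nceh1* moved from place 23 among the 33 members in controls, at 4.4 CPM per kb, to place 6 in mutants, at 13.9 CPM per kb.

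*Soat1* (ENSMUSG00000026600, chr1:156424525-156474331, minus strand) encodes the acyltransferase of the endoplasmic reticulum that makes cholesteryl esters, the opposite reaction. It was at 57.3, 57.3, 46.5 and 43.0 CPM in controls 1 to 4 and at 100, 69.0, 119 and 103 CPM in mutants 1 to 4. Mutant 2 was the lowest mutant and still lay above both of the highest controls. The mean rose from 51.0 ± 7.37 to 97.7 ± 20.9 CPM, 1.92-fold, and the log2 fold change was 0.94 (standard error 0.20, 95% interval 0.50 to 1.38, adjusted p = 0.0147). Summed over both genes, the cycle stood at 64.5 to 82.1 CPM in controls and 136 to 201 CPM in mutants. Neither gene overlapped between groups, so their sum could not overlap and adds no support. Neither gene shares exon bases with another annotated gene, and 0.719% of the 50-base words of *Soat1* and none of those of *Nceh1* also occur in transcripts of other genes.

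*Acly* (ENSMUSG00000020917, chr11:100476353-100528000, minus strand) was the only member called lower. It encodes ATP citrate lyase, which splits citrate into the cytosolic acetyl-CoA that both sterol and fatty acid synthesis draw on. It was at 113, 170, 152 and 108 CPM in controls 1 to 4 and at 73.5, 54.5, 59.1 and 33.7 CPM in mutants 1 to 4. All mutants were below all controls, and mutant 4 was the lowest. The mean went from 136 ± 30.2 to 55.2 ± 16.5 CPM, and the log2 fold change was -1.30 (standard error 0.26, 95% interval -1.88 to -0.71, adjusted p = 0.0120), and none of its 50-base words occurs in another gene. Per kilobase, *Acly* was the third of the 33 members in controls at 25.7 CPM per kb and was at 10.5 CPM per kb in mutants.

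The calls of *Nceh1*, *Soat1* and *Acly* held in all 16 alternatives of the fit, including each of the 8 libraries left out in turn. Control 1 and mutant 1 had the highest sum of other brain cell markers in their groups. With the mean level of the oligodendrocyte, astrocyte and neuron markers as a covariate, the log2 fold changes were 1.64 for *Nceh1*, 0.93 for *Soat1* and -1.32 for *Acly*. *Slc1a3*, listed as an astrocyte marker, was at 1084 to 1758 CPM in controls and 25.8 to 170 CPM in mutants. Among controls it was lowest in control 1 and highest in control 3, whereas every other astrocyte marker was highest in control 1. Among mutants all astrocyte markers, *Slc1a3* included, were highest in mutant 1. Which cells its RNA came from was not tested. The covariate includes *Slc1a3* and so carries part of the difference between the groups. The 4 border macrophage markers that rose with *Nceh1* and *Soat1*, *Mrc1*, *Pf4*, *Cd163* and *Ms4a7*, had log2 fold changes of 4.06 to 6.98, and their part in the rise of the 2 members was not tested. The 7 microglia markers that fell with *Acly* had log2 fold changes of -6.64 to -1.32, and their part in its fall was not tested either.

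**Figure D2:**
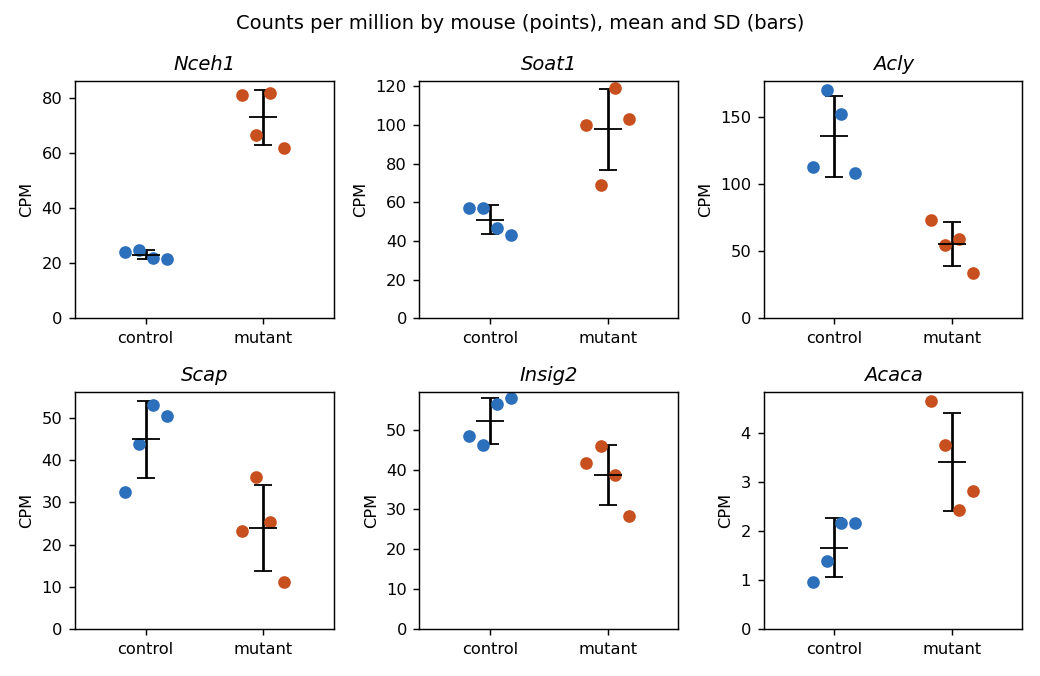
CPM of 6 members in each mouse (points), with the mean and SD of each group of 4 (bars), from 0 on a linear axis. *Nceh1* and *Soat1* are higher and *Acly* lower in every mutant than in any control, *Scap* overlaps between groups, and *Insig2* and *Acaca* do not overlap but were not called.

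The promoters of the 3 called members are shown beside that of *Hmgcs1*, the first enzyme of the sterol list, to let the letters upstream of genes that changed be set against those of one that did not pass the test. Each run is the RefSeq sequence of GRCm38.p6 before the transcript start, 5′ to 3′ on the strand of the gene, up to 250 bases long. The runs of *Nceh1*, *Soat1* and *Acly* end where the GENCODE gene begins, and that of *Hmgcs1* ends at its RefSeq start, upstream of the GENCODE gene. Capitals mark CACNCCAC (a core of the sterol regulatory element), CCAAT (the CCAAT box), CACGTG (an E-box) and GGGCGG (the GC box), each searched on both strands. No match overlaps another in these runs.
Nceh1 (chr3:27182754-27182964, plus strand): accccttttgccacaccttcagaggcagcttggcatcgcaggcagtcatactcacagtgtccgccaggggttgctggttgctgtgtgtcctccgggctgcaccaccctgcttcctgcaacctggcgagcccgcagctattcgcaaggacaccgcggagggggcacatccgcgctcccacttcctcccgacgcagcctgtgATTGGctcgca
Soat1 (chr1:156474332-156474578, minus strand): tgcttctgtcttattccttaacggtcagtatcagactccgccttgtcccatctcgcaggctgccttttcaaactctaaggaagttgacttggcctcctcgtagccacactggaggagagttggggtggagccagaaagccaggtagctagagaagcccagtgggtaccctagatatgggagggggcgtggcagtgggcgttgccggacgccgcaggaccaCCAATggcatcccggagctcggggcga
Acly (chr11:100528001-100528250, minus strand): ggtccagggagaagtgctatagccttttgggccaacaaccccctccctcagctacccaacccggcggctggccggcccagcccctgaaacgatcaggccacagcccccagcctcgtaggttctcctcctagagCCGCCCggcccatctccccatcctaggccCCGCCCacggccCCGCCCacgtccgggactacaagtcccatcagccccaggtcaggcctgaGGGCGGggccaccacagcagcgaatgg
Hmgcs1 (chr13:119690101-119690350, plus strand): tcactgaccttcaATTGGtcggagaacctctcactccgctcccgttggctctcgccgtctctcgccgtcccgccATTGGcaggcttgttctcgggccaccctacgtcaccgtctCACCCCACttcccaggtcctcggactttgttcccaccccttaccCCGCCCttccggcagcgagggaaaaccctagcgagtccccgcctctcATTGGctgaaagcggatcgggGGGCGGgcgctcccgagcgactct

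*Hmgcs1* holds 6 matches in its run: 1 sterol regulatory element core 136 bases before the RefSeq start, 3 CCAAT boxes and 2 GC boxes. *Acly* holds 4 GC boxes and none of the other letters, whereas the runs of *Soat1* and *Nceh1* hold 1 CCAAT box each, and a CACGTG of *Nceh1* lies past the end of its run. The table of promoters had an entry for 27 of the 33 members, and *Fdps*, *Fdft1*, *Sqle*, *Stard4*, *Scd1* and *Scd2* had none. Over the 250 bases before the start, CCAAT was found in 22 of the 27 members, or 81.5%, compared with 37.5% of all 27025 genes with a promoter and 39.9% of the 11948 that were also tested here. CACGTG was found in 7 members, or 25.9%, against 6.86% of all genes and 9.47% of the tested ones. GGGCGG was found in 20, or 74.1%, against 35.4% of all genes and 60.2% of the tested ones. CACNCCAC was found in 3 members, *Hmgcs1*, *Acat2* and *Insig1*, or 11.1%, against 6.05% of all genes and 6.78% of the tested ones. The palindrome GTCTAGAC, bound by SMAD proteins, and the repeat GGTCANNNNGGTCA, bound by the oxysterol receptors, were in none of the 27 and in 0.200% and 0.0518% of all genes. These are matches of letters and not measured binding sites.

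The 18 enzymes of sterol synthesis gave no call in either direction, against 12.3% of all tested genes called. Their log2 fold changes ran from -0.33 for *Cyp51* to 0.47 for *Tm7sf2* with a median of 0.10, 11 were positive and 7 negative, and none reached an unadjusted p under 0.05, which 28.7% of all tested genes did. Adjusted p-values of edgeR's test lay between 0.325 and 0.938. Summed over the 18 genes, controls held 389 to 480 CPM and mutants 415 to 488 CPM, with means of 434 ± 38.4 and 447 ± 35.4 CPM (SD, n = 4 each). A missed threshold does not show equal levels, and the 95% interval stayed within a change of 1 on the log2 scale for 11 of the 18 enzymes.

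*Acat2* and *Hmgcs1* catalyse the first condensations of acetyl-CoA on the way to mevalonate. *Acat2*, the cytosolic thiolase, was at 16 to 25.1 CPM in controls and 16.2 to 18.9 CPM in mutants (log2 fold change -0.14), although 39.1% of its 50-base words also occur in other genes, mainly *Acat3*. *Hmgcs1*, the HMG-CoA synthase, was at 61.9, 52.6, 23.5 and 34.7 CPM in controls 1 to 4 and at 77.5, 33.5, 22.9 and 58.4 CPM in mutants 1 to 4. Mouse 1 was the highest and mouse 3 the lowest in each group, and the log2 fold change of 0.16 had an interval from -0.79 to 1.10. Part of its exons (12.1%) overlaps *Gm48342* on the other strand, which unstranded counts cannot separate.

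*Mvk*, *Pmvk* and *Mvd*, phosphorylate and then decarboxylate mevalonate. *Mvk* had the smallest adjusted p of the sterol enzymes, at 12.8 to 23.8 CPM in controls and 20.2 to 24.4 CPM in mutants (log2 fold change 0.37, 95% interval -0.14 to 0.87, adjusted p = 0.325). The high control among these was control 1, and the other 3 controls lay below all 4 mutants. *Pmvk* was at 18.7 to 33.6 CPM in controls and 25.2 to 35.0 CPM in mutants (0.29, -0.20 to 0.79), and *Mvd* was at 16.1 to 21.6 and 10.7 to 18.8 CPM (-0.27, -0.77 to 0.22).

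*Idi1* and *Fdps* make the isoprenoid units that are joined to farnesyl diphosphate. *Idi1* was at 3.86 to 11.9 CPM in controls and 8.89 to 15.3 CPM in mutants (log2 fold change 0.46, 95% interval -0.35 to 1.26), and 25.3% of its 50-base words also occur in other genes. *Fdps* was at 3.67 to 4.58 CPM in controls and at 3.25 to 8.42 CPM in mutants (0.31, -0.47 to 1.08). Mutant 4 alone was above 4.90 CPM for *Fdps*, and 26.7% of its exon bases overlap *Gm43738* on the same strand.

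*Fdft1* and *Sqle* commit farnesyl units to squalene and its epoxide. *Fdft1* was at 34.8, 35.2, 23.4 and 33.5 CPM in controls 1 to 4 and at 31.7 to 35.2 CPM in mutants, so control 3 lay below the other 7 libraries. Its log2 fold change was 0.07 with an interval from -0.31 to 0.46, and 18.3% of its exon bases overlap the exons of *Ctsb*, a gene on the other strand that macrophages express at high levels. *Sqle* was at 20.5, 25.2, 8.37 and 18 CPM in controls and at 24.6, 24.5, 18.8 and 25.6 CPM in mutants. Control 3 was again the lowest library, and the log2 fold change was 0.37 (-0.33 to 1.07).

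*Lss* closes squalene epoxide to lanosterol, and *Cyp51*, *Tm7sf2* and *Msmo1* act in the steps that follow. *Lss* was at 7.42 to 22.4 CPM in controls and 6.69 to 17.5 CPM in mutants (log2 fold change -0.29, 95% interval -1.22 to 0.64). *Cyp51* was at 17.3 to 30.9 and 11.7 to 26.6 CPM (-0.33, -0.99 to 0.34). *Tm7sf2*, a sterol reductase, was at 3.70 to 9.98 and 5.38 to 15.9 CPM (0.47, -0.46 to 1.39), with mutant 3 the highest and 12.1% of its exon bases shared with *Vps51*. *Msmo1*, the methyl oxidase, had the narrowest interval of the 18 enzymes, at 50.8 to 57.9 CPM in controls and 51.0 to 68.8 CPM in mutants (0.09, -0.24 to 0.41).

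*Nsdhl*, *Hsd17b7*, *Ebp*, *Sc5d* and *Dhcr7* carry out later steps of the pathway, and *Nsdhl* and *Ebp* lie on the X chromosome. *Nsdhl* was at 19.6 to 22.1 CPM in controls but at 22.9, 17.9, 14 and 36 CPM in mutants 1 to 4, so the mutants lay on both sides of the controls (log2 fold change 0.11, 95% interval -0.52 to 0.74). *Ebp*, a sterol isomerase and the second member in level per kilobase, was at 55.2 to 86.6 and 55.6 to 83.6 CPM (-0.13, -0.57 to 0.30). *Hsd17b7*, a ketoreductase, was low at 2.80 to 6.62 and 3.39 to 10.4 CPM (0.46, -0.51 to 1.43), and *Sc5d*, a desaturase, was at 21.9 to 31.5 and 17.6 to 30.3 CPM (-0.21, -0.72 to 0.31). *Dhcr7*, which reduces the final double bond of one branch, was at 25.3 to 29.5 CPM in controls and at 29.3, 31.9, 32.2 and 15.3 CPM in mutants. Mutant 4 alone lay below the controls, and mutants 2 and 3 lay above them, with a log2 fold change of -0.04 (-0.58 to 0.50).

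**Figure D3:**
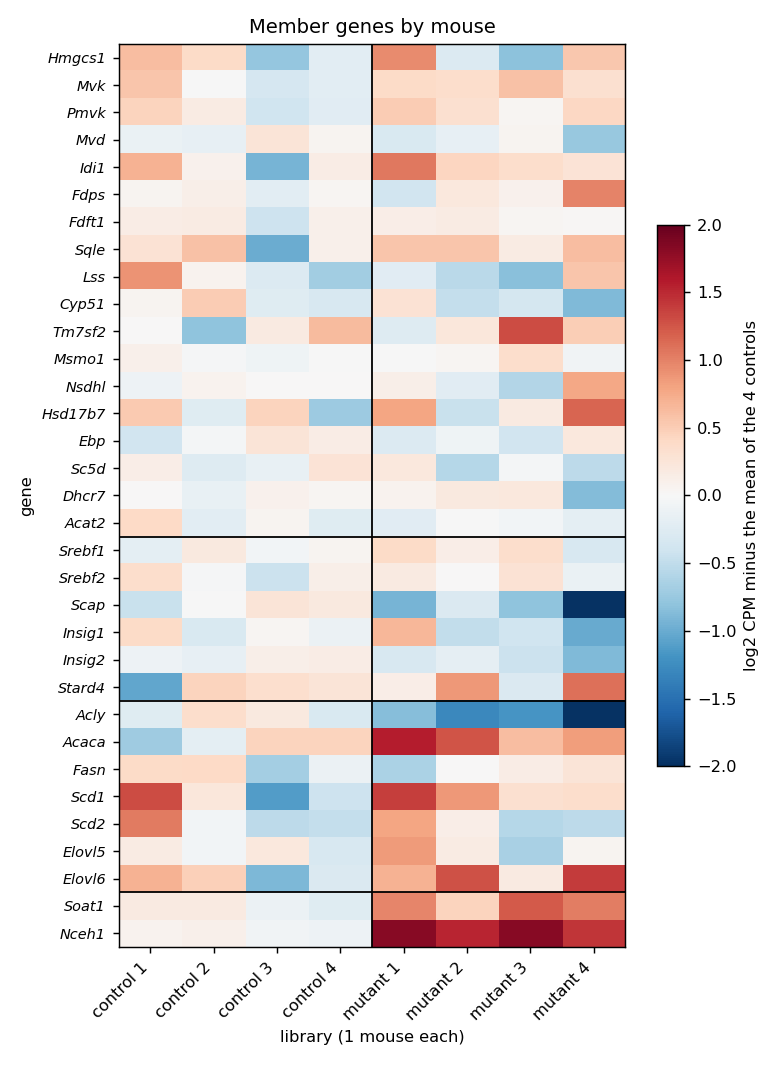
Log2 CPM of each member in each mouse minus the mean log2 CPM of the 4 controls, with genes in rows, mice in columns and colour from -2 (blue) to 2 (red), the ends of the scale. Black lines separate the 4 roles and the groups. *Nceh1* and *Soat1* are red and *Acly* is blue in all 4 mutants, while many sterol enzymes are red in some mice of a group and blue in others.

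None of the 6 genes of sterol sensing and SREBP control was called, against 12.3% of all tested genes. With so few genes this count is no result about the list. *Scap* and *Insig2* reached an unadjusted p under 0.05 in edgeR's test, as 28.7% of all tested genes did. *Srebf1*, which encodes the factors that chiefly drive fatty acid genes, was at 61.7, 81.2, 67.7 and 73.1 CPM in controls and at 92.4, 77.0, 90.4 and 56.7 CPM in mutants (log2 fold change 0.16, 95% interval -0.26 to 0.57). *Srebf2*, whose product chiefly drives sterol genes, was at 71.3, 55.2, 41.5 and 60.8 CPM and at 63.8, 56.7, 68.5 and 51.4 CPM (0.07, -0.36 to 0.50). For both transcription factor genes the groups overlapped and the interval stayed within 1 on the log2 scale.

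*Scap*, the escort of the SREBP factors, had the largest difference of the regulators. It was at 32.5, 43.8, 53.0 and 50.5 CPM in controls and at 23.3, 36, 25.3 and 11.2 CPM in mutants. Mutant 2 was above control 1, so the groups overlapped, and mutant 4 was the lowest. The log2 fold change was -0.91 (standard error 0.33, 95% interval -1.64 to -0.17, adjusted p = 0.104), which did not pass, whereas DESeq2, which called 21.2% of all tested genes, gave -0.90 with an adjusted p of 0.0412. Exons of *5830462I19Rik* on the other strand overlap 13.2% of the exon bases of *Scap*.

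Of the genes that hold SCAP back, *Insig2* was at 48.5, 46.3, 56.4 and 58.0 CPM in controls and at 41.7, 45.9, 38.7 and 28.3 CPM in mutants. All mutants were below all controls, but mutant 2 and control 2 lay close together, and the difference did not pass the test (log2 fold change -0.44, standard error 0.18, 95% interval -0.85 to -0.03, adjusted p = 0.15). *Insig1* was at 14.5 to 23.3 CPM in controls and at 28.2, 12.7, 13.5 and 8.89 CPM in mutants (-0.20, -0.99 to 0.59). Mutant 1 was the highest of all 8 libraries and the other 3 mutants were below the lowest control. *Stard4*, a carrier of cholesterol between membranes, was at 3.02 to 8.44 and 5.10 to 13.3 CPM (0.45, -0.48 to 1.39).

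Among the genes of fatty acid synthesis, *Acly* was followed by *Acaca*, which encodes the carboxylase of the committed step. *Acaca* was the lowest member per kilobase in both groups, at 0.957, 1.38, 2.15 and 2.15 CPM in controls and at 4.65, 3.74, 2.42 and 2.82 CPM in mutants. Every mutant was above every control, and the lowest library held 37 counts. The log2 fold change was 1.04 (standard error 0.42, 95% interval 0.08 to 1.99, adjusted p = 0.143) and did not pass, and 30.4% of the 50-base words of *Acaca* also occur in other genes, mainly *Gm5182*. *Fasn*, the fatty acid synthase, was at 33, 33.4, 15.8 and 23.2 CPM in controls and at 16.2, 25.4, 28.0 and 30.3 CPM in mutants. The lowest and the highest *Fasn* libraries were both controls, and the log2 fold change was -0.08 (-0.73 to 0.57).

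*Elovl5* and *Elovl6* lengthen polyunsaturated and saturated chains, respectively. *Elovl6* was at 8.35, 7.16, 2.77 and 4.22 CPM in controls and at 8.36, 12.4, 5.85 and 13.5 CPM in mutants. The groups overlapped through mutant 3, and the log2 fold change of 0.83 (95% interval -0.10 to 1.77, adjusted p = 0.223) did not pass. *Elovl5* was at 38.9 to 55.9 CPM in controls and 31.1 to 87.9 CPM in mutants (0.19, -0.46 to 0.84), with mutant 1 the highest.

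The desaturases, which place a double bond in saturated chains, varied widely between mice of the same group. *Scd2*, the main brain form and the highest member per kilobase in both groups (35.9 CPM per kb in controls and 33.7 in mutants), was at 363, 170, 123 and 127 CPM in controls and at 303, 193, 119 and 122 CPM in mutants. *Scd1* was at 46.2, 21.8, 8.62 and 14.0 CPM and at 48.8, 33.9, 23.4 and 23.9 CPM. For both genes control 1 and mutant 1 were the highest library of their group. The log2 fold changes were -0.09 (95% interval -1.04 to 0.87) for *Scd2* and 0.52 (-0.58 to 1.62) for *Scd1*. Without control 1 the value for *Scd2* was 0.39 and that for *Scd1* was 1.13 (adjusted p = 0.493 and 0.102 in edgeR's test). Over all the libraries left out in turn, *Scd2* ran from -0.44 to 0.39 and *Scd1* from 0.25 to 1.13, and neither was called.

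Ratios of related genes within a library do not depend on its scaling. The log2 ratio of *Scd1* to *Scd2* per kilobase was -2.81, -2.80, -3.67 and -3.02 in controls and -2.47, -2.35, -2.18 and -2.19 in mutants. Every mutant was above every control, and the means differed by 0.78 (two-sided exact permutation test over 70 splits, p = 0.0286, the smallest it can give). Adjusted over the 4 ratios examined, p was 0.114 and the difference did not pass. The ratio of *Elovl5* to *Elovl6* differed by -0.77 (exact p = 0.171, adjusted 0.343), that of *Insig1* to *Insig2* by 0.14 (exact p = 0.686, adjusted 0.829) and that of *Srebf1* to *Srebf2* by 0.05 (exact p = 0.829), and these groups overlapped.

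Control 1 and mutant 1 also had the highest sums of oligodendrocyte and neuron markers in their groups. The Methods describe gates for single live cells, after which TdTomato+ cells were analysed for CD45 and CD11b. The reporting summary describes a sort of CD45 and CD11b positive cells. The source of the oligodendrocyte and neuron RNA was not tested. *Mobp*, a myelin gene of oligodendrocytes, was at 534 CPM in control 1 and 61.9 to 167 CPM in the other controls, and at 471 CPM in mutant 1 and 115 to 178 CPM in the other mutants. *Snap25*, a synaptic gene of neurons, was at 146 and 144 CPM in these libraries and at 17.8 to 58.7 CPM in the others. Of 33 members, 14 had their highest control value in control 1 and 12 their highest mutant value in mutant 1. With the oligodendrocyte, astrocyte and neuron markers as a covariate, *Slc1a3* among them, *Nceh1*, *Soat1* and *Acly* remained the only members called. The log2 fold change was then -0.06 for *Hmgcs1*, -0.01 for *Elovl5*, -0.29 for *Scd2* and 0.42 for *Scd1*. None of 7 oligodendrocyte and none of 6 neuron markers was called, and of 6 astrocyte markers *Slc1a3* alone fell (-4.10). The sums were 276 to 1058 and 356 to 1010 CPM for oligodendrocyte markers, 34.9 to 305 and 82.0 to 249 CPM for neuron markers and 1425 to 2427 and 341 to 1258 CPM for astrocyte markers in controls and mutants, with none of these at 0. *Slc1a3* alone held 1084 to 1758 and 25.8 to 170 CPM of the astrocyte sums, and which cells it came from was not tested. For each of the other astrocyte markers the groups overlapped. None of 4 monocyte and neutrophil markers was called (440 to 1583 and 242 to 761 CPM), and of 5 tested endothelial and mural markers *Pdgfrb* fell, in a list that summed to 23.6 to 43.3 and 10.6 to 21.6 CPM and whose sixth gene, *Cldn5*, was at 0 in 4 of the 8 libraries.

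**Figure D4:**
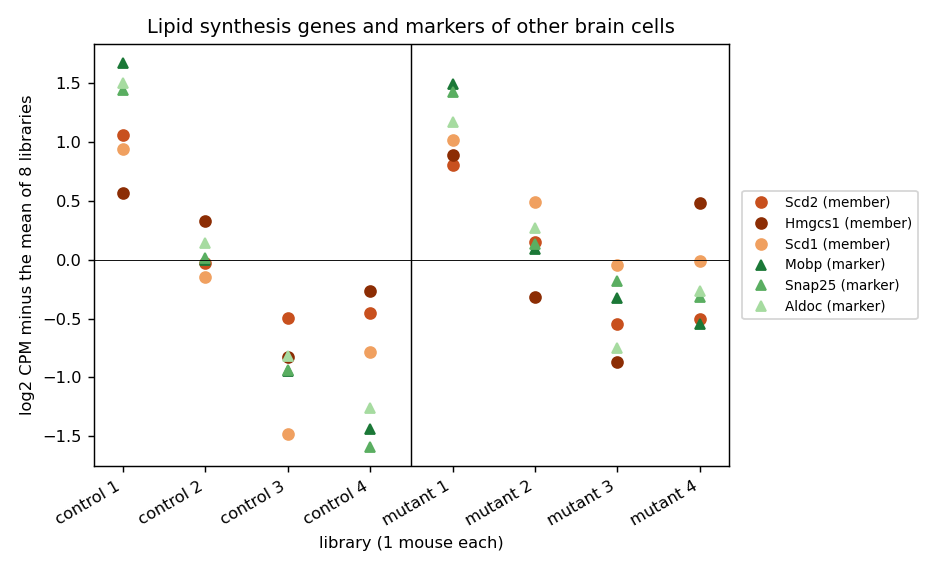
Log2 CPM minus the mean of the 8 libraries for *Scd2*, *Scd1* and *Hmgcs1* (circles) and for *Mobp*, *Snap25* and *Aldoc*, markers of oligodendrocytes, neurons and astrocytes (triangles), in each mouse. In control 1 and mutant 1 all 6 genes lie above 0, and in control 3 and mutant 3 all 6 lie below it.

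Around the members, 7 lists of neighbouring lipid genes held 115 genes, of which 111 were tested, 10 rose and 14 fell, or 21.6% called against the 12.3% of all tested genes. The count that fell was 7 without control 3 or mutant 2, 8 without control 2 and 9 without mutant 4, and calls over all tested genes ranged from 1567 without control 3 to 4281 with DESeq2. All 7 lists were chosen with earlier results of these data known, so the share called in a list is no test of that list. The part of SREBP processing and sterol feedback that is not among the members gave 1 call in 14, *Rnf139*, a ligase of the endoplasmic reticulum, which fell by 0.88 on the log2 scale. The isoprenoid branches gave 1 call in 14, *Zmpste24*, which processes prelamin A (-1.06). Their median log2 fold changes were -0.22 and -0.14. The call of *Zmpste24* was lost with library totals and without any library but mutant 1 (adjusted p = 0.0548 to 0.0990).

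The LXR and oxysterol list, the arm that answers to surplus cholesterol, had 4 genes higher and 2 lower among 12 tested, or 50% called, against 12.3% of all tested genes (4.36% higher and 7.97% lower). The list was chosen with earlier results of these data known, so this share is no test of it. *Ch25h*, which makes an oxysterol, rose, at 0 to 0.755 CPM in controls and 10.7 to 16.6 CPM in mutants (log2 fold change 5.39, adjusted p = 0.00960). *Nr1h3*, which encodes the receptor LXRα, was at 0 to 2.55 and 11.5 to 25.7 CPM (3.64, adjusted p = 0.0346). *Cyp27a1*, a sterol hydroxylase, was at 16.9 to 33.8 and 70.9 to 101 CPM (1.78, adjusted p = 0.00210), and *Abcg1*, a cholesterol exporter, was at 87.3 to 134 and 178 to 235 CPM (0.84, adjusted p = 0.0171). For these 4 genes all mutants lay above all controls, as for 9.04% of all tested genes. *Lpcat3*, a phospholipid acyltransferase, fell, at 243 to 322 and 62.4 to 74.5 CPM (-1.93, adjusted p = 9.4e-05), and *Rxrb*, a partner receptor, fell as well (-0.83, adjusted p = 0.0184). The call of *Nr1h3* was lost without control 1, 2 or 3 or mutant 1, 2 or 3 (adjusted p = 0.0544 to 0.0952), that of *Rxrb* without control 2 or 3 or mutant 2 (0.0509 to 0.0580) and that of *Abcg1* without control 2 (0.0533).

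Of 11 genes of intracellular cholesterol transport, 3 fell and none rose, against 7.97% of all tested genes called lower. This list was likewise chosen with earlier results known. *Gramd1a* and *Stard3*, which move cholesterol between membranes at contact sites, had log2 fold changes of -1.81 and -1.41 (adjusted p = 0.00840 and 9.3e-04), and *Scarb2*, a lysosomal membrane protein, had -0.73 (adjusted p = 0.0293). For each of them the highest mutant was below the lowest control, as in 13% of all tested genes, and *Gramd1a* and *Stard3* kept their calls in all alternatives. *Scarb2* lost its call without control 3 or 4 or mutant 1, 2 or 4 (adjusted p = 0.0594 to 0.0816).

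The other genes of fatty acid synthesis and activation gave 3 calls in 25 tested, or 12%, against 12.3% of all tested genes, so the share was that of the background and is no result about the list. *Hacd4*, a dehydratase of chain elongation, rose (1.10, adjusted p = 0.00408), *Degs1*, a desaturase of ceramide synthesis, rose (0.61, adjusted p = 0.0364), and *Mcat*, a mitochondrial malonyl transferase, fell (-1.06, adjusted p = 0.0240). *Degs1* lost its call with each library left out but mutant 1 (adjusted p = 0.0518 to 0.0892), with a block on the replicate number (0.0523) and with no filter on low counts (0.0765), and *Mcat* without control 2 or 3 or mutant 2 (0.0623 to 0.0660).

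In the triglyceride and lipid droplet list, 3 genes rose and 5 fell among 20 tested, or 40% called, against 12.3% of all tested genes (4.36% higher and 7.97% lower). The 5 became 2 without control 2 or 3 or mutant 1, 2 or 4, and 3 without control 4, with library totals or with no filter on low counts. The list was chosen with earlier results of these data known, so its share is no test of it. The droplet coat genes *Plin2* and *Plin3* rose, *Plin2* at 63.7 to 120 CPM in controls and 228 to 276 CPM in mutants (1.53, adjusted p = 0.00176) and *Plin3* at 53.6 to 81.4 and 110 to 149 CPM (0.98, adjusted p = 0.00700), and *Agpat2*, an acyltransferase, rose with overlapping groups (0.75, adjusted p = 0.0438). The acyltransferases of the last step to triglycerides fell, *Dgat2* at 14.5 to 25.7 and 2.26 to 4.45 CPM (-2.51, adjusted p = 9.3e-04) and *Dgat1* at 39.2 to 49.6 and 22.8 to 25.9 CPM (-0.85, adjusted p = 0.00549). *Lipe* and *Mgll*, which encode lipases, were both at -0.92 (adjusted p = 0.0379 and 0.0433), and *Lpin2*, a phosphatase named after its value was seen because the count is only 5, was at -0.76 (adjusted p = 0.0384). *Plin2*, *Plin3*, *Dgat1* and *Dgat2* kept their calls in all alternatives. With a library left out, adjusted p reached 0.123 for *Agpat2* (without control 2), 0.0966 for *Lipe* (control 3), 0.0929 for *Mgll* (mutant 3) and 0.102 for *Lpin2* (mutant 2), and each of these 4 calls was lost without at least 5 different libraries. With library totals the adjusted p was 0.0513 for *Lipe* and 0.0885 for *Mgll*, with the other brain cell covariate 0.0599 for *Lipe*, and with no filter on low counts 0.0514 for *Lipe*, 0.0622 for *Lpin2* and 0.0796 for *Agpat2*.

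Of 15 genes of fatty acid oxidation and the PPAR receptors, *Pparg* rose, at 0.565 to 1.98 CPM in controls and 3.96 to 10.4 CPM in mutants (2.59, adjusted p = 0.00974) and *Ppard* fell, at 5.91 to 11.5 and 0.805 to 3.15 CPM (-2.28, adjusted p = 0.0140). These 2 calls were 13.3% of the list, against 12.3% of all tested genes. The share was near the background and is no result about the list. No enzyme of the oxidation pathway itself was called, and the median of the list was 0.29. As for *Nceh1* and *Soat1*, border macrophage markers rose and microglia markers fell in the same libraries, and their part in these values was not tested.

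**Figure D5:**
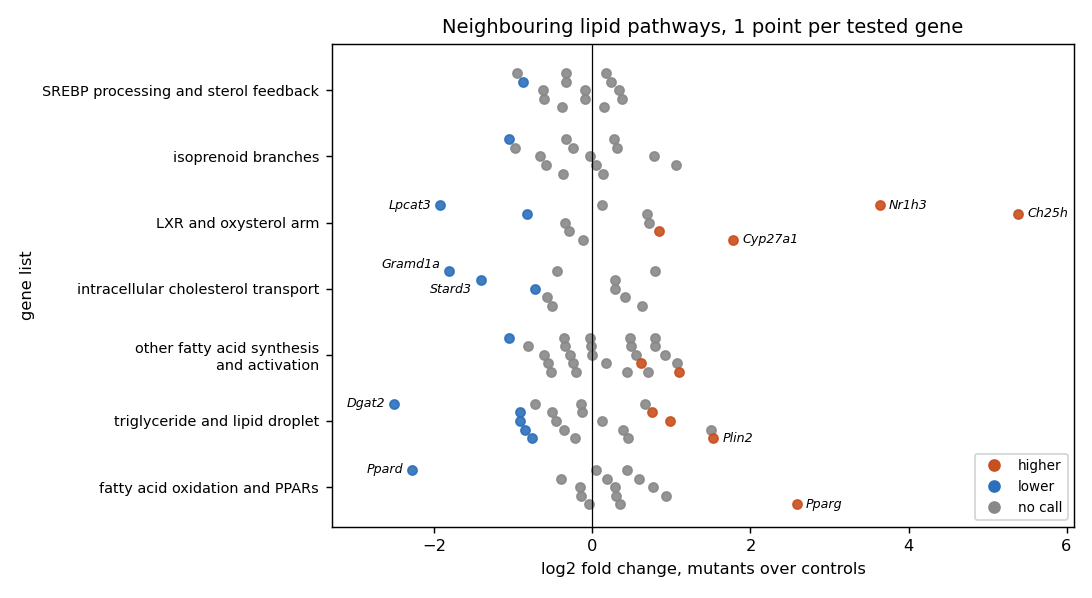
Log2 fold change of mutants over controls for the 111 tested genes of 7 neighbouring lipid lists, 1 point per gene, coloured by call and spread vertically only to separate points. *Ch25h* (5.39), *Nr1h3* (3.64) and *Pparg* (2.59) lie farthest to the right and *Dgat2* (-2.51) and *Ppard* (-2.28) farthest to the left.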

How the data were processed

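RNA of microglia sorted from 4 mutant and 4 control brains was analysed, grouped by the sample labels. The deposited file used holds raw counts per gene, which the authors made by alignment to mm10 with Rsubread and counting with featureCounts, per the Methods and the column headers. Software versions, annotation and strand setting for this are not given in the sources used here. The labels describe single-end, unstranded Nextera XT libraries, whereas the Methods describe NEBNext libraries and paired-end reads and name another deposit for the Smad2/3 mutants. The authors' DESeq2 comparison (fold changes and p-values of their own test, version 1.28 per the labels) was not used. No column of per-sample values was left out.

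The counts were fitted in edgeR 4.0.16 (R 4.3.3) with glmQLFit and glmQLFTest after TMM scaling, with genes of at least 10 counts in at least 4 of 8 libraries and no block. The biological coefficient of variation was 0.542. Standard errors were the fold change divided by the square root of F. Ratios were taken from log2 CPM with a prior count of 2. Gene identifiers were named from GENCODE M21 (55394 of 55573 matched), whose exon lengths give CPM per kb, and promoters are from RefSeq. The alternatives were DESeq2 1.42.0, RLE factors, library totals, 2 other count filters, a replicate block, autosomal genes only, other brain cell markers as a covariate, a prior count of 0.5 for ratios, and each library left out. Within a group, libraries differed by more than sampling noise (chi-square per gene 107.3 to 275.7). The 33 members and the lists were chosen with earlier results of these data known. Named genes are all members, marker and targeted genes and, per pathway list, at most 4 called genes in each direction by size of change, to which *Lpin2* was added after its value was seen. Tables, permutation tests and plots were made in Python 3.11.15 with pandas 2.3.3, scipy 1.17.1 and matplotlib 3.10.9. P-values measure spread between mice, and the reads carry no molecular identifiers.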

Additional observations from a re-analysis of the deposited data

Results flagged for a closer look

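In 4 of the 74 groups of 4 values examined (33 genes and 4 ratios in each group of mice), 1 mouse stood apart from the other 3 by Dixon's test, which chance exceeds in about 1 in 20 groups. *Fdft1* was at 23.4 CPM in control 3, against 33.5 to 35.2 CPM in the other controls. *Sqle* was at 18.8 CPM in mutant 3, against 24.5 to 25.6 CPM in the other mutants. *Dhcr7* was at 15.3 CPM in mutant 4, while the other mutants had 29.3 to 32.2 CPM, and without this mouse its log2 fold change was 0.16. *Stard4* was at 3.02 CPM in control 1, against 7.40 to 8.44 CPM in the other controls. None of these 4 genes was called with all mice or with any 1 library left out.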

How the results depend on the processing

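Of 526 member fold changes recomputed under the alternatives, 502 kept their sign and their side of the threshold, and *Nceh1*, *Soat1* and *Acly* were called in all 16. DESeq2 called 4281 genes in all, against 2485, and 2 members lower, adding *Scap* (-0.90). With 1 library left out, 1567 to 2499 genes were called, 7 to 10 genes of the pathway lists were higher and 7 to 14 lower, with the fewest overall without control 3 (1567) and control 2 (1572). Library totals moved the median of all genes to 0.130 and that of the members to 0.23, and gave 0.09 for *Dhcr7*, 0.02 for *Fasn* and 0.03 for *Scd2*. The other brain cell covariate gave -0.06 for *Hmgcs1* and -0.01 for *Elovl5*. These genes have intervals that span 0, and none was called in any of these fits. The lowest count of a member in any library was 37, for *Acaca*. *Ch25h* and *Nr1h3* did not pass the filter of 10 counts in all 8 libraries, and the X-linked *Nsdhl* and *Ebp* were not in the autosomal fit.

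Fold changes of uncalled members also crossed 0 with a library left out: *Hmgcs1* from -0.17 to 0.39, *Fdps* from -0.02 to 0.48, *Fdft1* from -0.05 to 0.15, *Lss* from -0.64 to 0.10, *Msmo1* from -0.01 to 0.14, *Nsdhl* from -0.20 to 0.28, *Dhcr7* from -0.13 to 0.16, *Acat2* from -0.21 to 0.01, *Srebf2* from -0.06 to 0.20, *Fasn* from -0.26 to 0.08, *Scd2* from -0.44 to 0.39 and *Elovl5* from -0.11 to 0.39. The difference in the ratio of *Insig1* to *Insig2* ranged from -0.14 (without mutant 1) to 0.30 and that of *Srebf1* to *Srebf2* from -0.13 (without control 1) to 0.17. The cause was not tested. Of the 382 values of called pathway genes, none changed sign and 66 lost the call, while 13 of the 24 genes kept it in every fit.

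Both groups carry replicate numbers 1 to 4, but the labels do not say what they mark, and the deviations of same-numbered libraries correlated across genes at 0.194, 0.201 and 0.144 for numbers 1, 3 and 4 but at 0.00618 for number 2, with control 2 nearest to mutant 1, so the numbers were not taken as pairs. A block on these numbers left 2383 genes called, with the same 3 members, and *Degs1* lost its call (0.60, adjusted p = 0.0523). The paired sign-flip test of *Scd1* to *Scd2* (0.78) gave p = 0.125, the smallest that 4 pairs allow in an exact permutation.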
